A study of Rattus norvegicus with 372 samples.

Results

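The hepatocytes described here were exposed to isoniazid at its high concentration of 10000 µM, and they comprise 6 wells, each run once in the whole transcriptome (WT) assay and once in the surrogate transcriptome (ST) assay, so 12 of the 372 libraries of the series. The wells were taken by their labels, as the wells with isoniazid at 10000 µM in either batch, and each was set against the vehicle wells of its own batch. In the study, primary rat hepatocytes in collagen sandwich culture were treated with 14 chemicals at 2 concentrations each and profiled by TempO-Seq, in which pairs of detector oligonucleotides are ligated on their target RNA in a cell lysate, amplified and counted. Each treatment had 3 wells on a plate, and the experiment was performed in 2 batches, each with hepatocytes of 1 Wistar rat.

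The 6 isoniazid wells comprised 3 wells of batch 1 and 3 wells of batch 2. The vehicle group held 3 wells in batch 1, all on the plate of the isoniazid wells, and 6 wells in batch 2, of which 3 were on that plate. Wells at 400 µM isoniazid, 3 in each batch, alternated with those at 10000 µM along the same plate row. All of these wells held hepatocytes of male Wistar rats of 250 to 300 g, seeded at 25000 cells per well, exposed for 24 h, with 0.5% DMSO in the medium of vehicle and treated wells alike. The medium of every group also contained 100 nM dexamethasone, 0.5 µg/mL insulin and 10 ng/mL EGF. A well is thus a technical replicate of a culture from 1 animal, and p-values over wells measure the spread between wells of 2 rats, not the spread between animals.

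Isoniazid is a hydrazide used against tuberculosis, and liver injury is its best known adverse effect. In the liver it is acetylated by N-acetyltransferase 2 and hydrolyzed by amidases to hydrazine and isonicotinic acid, and it reacts with pyridoxal, the vitamin B6 aldehyde whose phosphate is the cofactor of aminotransferases and of aminolevulinate synthase, the first enzyme of heme synthesis. Hepatocytes supply plasma proteins, clear ammonia, break down amino acids and carry most of the cytochrome P450 enzymes of the body. The aryl hydrocarbon receptor (AhR) is a ligand-activated transcription factor that, with its partner ARNT, binds DNA at a short core sequence and raises Cyp1a1, Cyp1a2, Cyp1b1 and Tiparp.

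The 15 WT libraries compared held between 5345700 and 8265000 reads for isoniazid and vehicle together, with 34.7% to 39.0% of probes at zero, and the ST libraries held 810020 to 1784000 reads. Within each group the mean Pearson correlation of log2 CPM (reads of a gene per 1000000 reads of the well, on scaled library sizes) between a WT well and its group mates was 0.976 or higher, and 0 wells had the counts of another. Alb, encoding albumin, had 8200 to 11353 CPM in the isoniazid wells and 10332 to 14278 CPM in the vehicle wells, and Apoa1, Ttr and Tf were each at 3411 CPM or more in every well. The list of Kupffer cell and leukocyte markers, of which 14 of 15 genes were measured, summed to 143 to 336 CPM in isoniazid and 151 to 203 CPM in vehicle wells of batch 1, and to 104 to 123 CPM against 115 to 152 CPM in batch 2. Stellate cell markers summed to 614 to 667 against 621 to 644 CPM in batch 1 and to 388 to 464 against 343 to 444 CPM in batch 2, with Des and Thy1 at 0 counts in the isoniazid wells of both batches. Endothelial markers summed to 11.3 CPM or less in every isoniazid and vehicle well, and biliary markers to 115 to 142 CPM.

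At 10000 µM, isoniazid raised 1771 genes and lowered 1766 genes of the 10191 genes tested in the WT assay (edgeR quasi-likelihood test, Benjamini-Hochberg adjusted p under 0.05), which is 34.7% of genes, 17.4% higher and 17.3% lower. With the wells of each rat summed to 1 value 1859 genes passed, 871 higher and 988 lower. List counts with wells summed per rat, given below, are to be read beside these numbers of the 10191 genes. Over wells, the falls were larger than the rises: 375 genes fell and 216 rose at least 2-fold, 57 fell and 25 rose at least 4-fold, and the median log2 fold change (L2FC) was -0.61 among the genes that fell and 0.50 among those that rose. The largest rises were ranked among genes that passed in each batch with a mean of 50 counts or more in the higher group. They were Cyp1b1, the cornified envelope gene Crct1, the imprinted zinc finger gene Plagl1 and Tiparp, of which Cyp1b1 and Tiparp are AhR target genes. Among the falls were many genes of hepatocyte work: 18 of 20 coagulation genes, 20 of 23 genes of amino acid breakdown, 11 of 17 constitutive cytochrome P450 genes and 10 of 13 endoplasmic reticulum (ER) chaperone genes. All levels are shares of a well's reads, so in these bulk samples fewer cells of a type and less RNA per cell cannot be told apart.

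**Figure D1:**
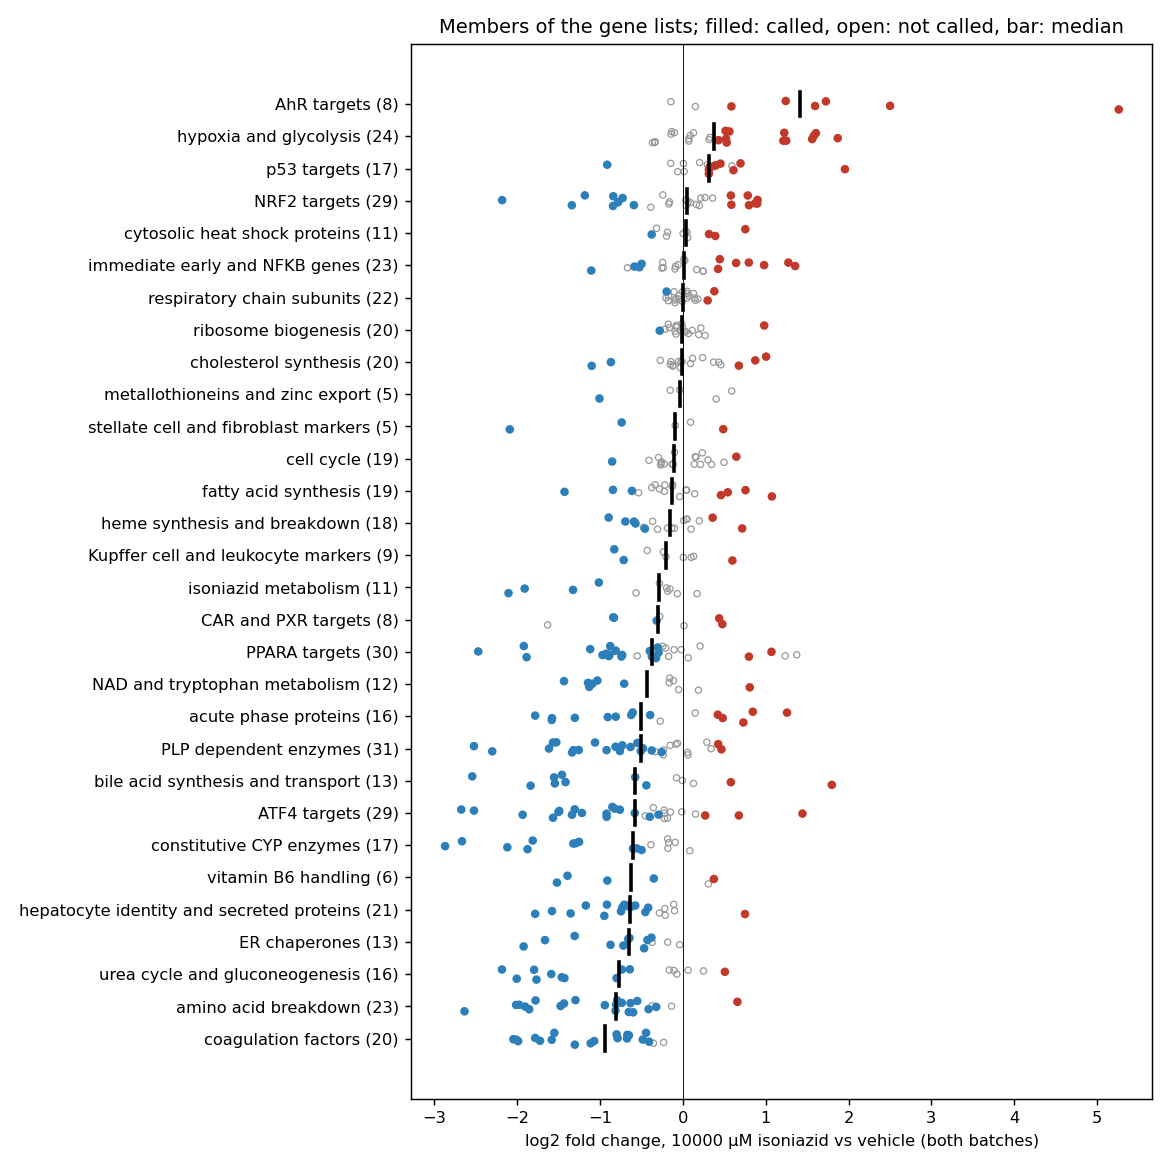
Log2 fold change of 10000 µM isoniazid against vehicle (x axis, fit of both batches) for each tested member of the gene lists with 5 or more tested members (y axis, number tested in brackets). Filled points passed the test (red higher, blue lower), open points did not, and the black bar is the median of the list, which runs from -0.93 for coagulation factors to 1.42 for AhR targets.

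The AhR target genes had the highest median L2FC of the lists. Of 8 tested members 6 rose, 0 fell, and the median L2FC was 1.42, against 0.01 over all genes tested, of which 17.4% rose. With the wells of each rat summed 5 of the 8 rose, and Nqo1 no longer passed. Cyp1b1, a cytochrome P450 that oxidizes polycyclic hydrocarbons and estrogens, was nearly silent in vehicle wells, at 1.44, 1.07 and 0.17 CPM in batch 1 and 0 to 0.41 CPM (median 0.16) in batch 2. In the isoniazid wells it was at 22.9, 29.8 and 27.8 CPM in batch 1 and 11.8, 12.7 and 11.5 CPM in batch 2. The groups did not overlap in either batch, and the L2FC was 5.26 ± 0.33 (SE, 6 against 9 wells, adjusted p = 2.67e-32), the largest rise among the genes ranked for size. No vehicle well had more than 12 counts of Cyp1b1, so the fold is measured against a low level.

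Tiparp, a mono-ADP-ribosyltransferase that is an immediate AhR target and feeds back on the receptor, rose from 4.44, 2.14 and 4.43 CPM in the vehicle wells of batch 1 to 27.8, 26.4 and 13.5 CPM. In batch 2 it rose from 2.00 to 7.49 CPM (median 5.01) to 19.8, 33.1 and 24.6 CPM. The L2FC was 2.502 ± 0.234 (adjusted p = 2.11e-18). Every isoniazid well lay above every vehicle well of its batch. Aldh3a1, an aldehyde dehydrogenase, rose by 1.73 ± 0.29 (adjusted p = 1.78e-07) with a wide spread, since single wells reached 72.3 CPM in batch 1 and 81.8 CPM in batch 2 beside wells at 29.3 and 18.2 CPM. Nqo1, a quinone reductase, rose by 0.59 ± 0.15 (adjusted p = 0.000685), a call lost with wells summed per rat (adjusted p = 0.119). The receptor gene itself, Ahr, had an L2FC of 0.15 and Nfe2l2 one of -0.14, and neither passed the test.

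Cyp1a2, the main caffeine-oxidizing enzyme of liver, was at 628, 607 and 434 CPM in the vehicle wells of batch 1 and 504 to 734 CPM in those of batch 2. It was at 2073, 2356 and 3030 CPM in the isoniazid wells of batch 1 and at 1017, 1269 and 1586 CPM in those of batch 2. The groups did not overlap, with an L2FC of 1.60 ± 0.19 (adjusted p = 3.23e-13), and the rise was larger in batch 1 (2.16) than in batch 2 (1.02), a difference of -1.14 that passed the test of the difference (adjusted p = 0.0428). Cyp1a1, the classic AhR-induced enzyme, rose by 1.24 (adjusted p = 8.96e-08), from 25.8 to 35.6 CPM to 72.7 to 90.1 CPM in batch 1 and from 27.2 to 40.7 CPM to 49.0 to 88.9 CPM in batch 2.

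The promoters of 3 of these genes are shown because the genes differed in their response to concentration and the AhR core can be looked for in them. The 250 bases before the start are from RefSeq, build GRCr8, read 5′ to 3′ on the strand of the gene, and capitals mark each match to GCGTG or to its reverse complement. Cyp1b1 lies at chr6:21094315-21094564 (+ strand), Tiparp at chr2:152063519-152063768 (+ strand) and Cyp1a2 at chr8:66978150-66978399 (- strand).
Cyp1b1: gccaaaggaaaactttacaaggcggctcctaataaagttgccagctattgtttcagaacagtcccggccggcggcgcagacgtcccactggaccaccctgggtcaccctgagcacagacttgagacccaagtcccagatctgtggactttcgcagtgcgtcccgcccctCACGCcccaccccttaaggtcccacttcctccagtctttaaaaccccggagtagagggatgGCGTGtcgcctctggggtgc
Tiparp: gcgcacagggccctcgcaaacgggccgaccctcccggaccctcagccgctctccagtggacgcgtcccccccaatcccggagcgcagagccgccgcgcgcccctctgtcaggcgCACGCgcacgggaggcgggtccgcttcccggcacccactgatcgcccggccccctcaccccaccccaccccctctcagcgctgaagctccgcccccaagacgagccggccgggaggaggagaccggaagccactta
Cyp1a2: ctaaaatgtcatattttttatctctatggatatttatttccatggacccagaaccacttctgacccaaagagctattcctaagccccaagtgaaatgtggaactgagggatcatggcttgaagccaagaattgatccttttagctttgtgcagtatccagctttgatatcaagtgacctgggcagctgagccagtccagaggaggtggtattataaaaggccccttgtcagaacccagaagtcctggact
The Cyp1b1 window held 2 matches, 81 and 20 bases before the start, the Tiparp window held 1, 136 bases before the start, and the Cyp1a2 window held 0. Of all 33469 rat promoter windows of this length, 25.9% held the core on either strand. Among the 6 AhR targets that rose, 4 were in the table and 3 of these held it, the third being Nqo1. A match is a string of letters and not a measured binding site.

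At 400 µM isoniazid only 2 of 10191 genes passed the test against vehicle (0.0196%, 2 higher and 0 lower, edgeR, with 476 genes at an unadjusted p under 0.05), and these were Cyp1a2 and Cyp1a1. DESeq2 also called 2 genes. Cyp1a2 rose by 1.59 ± 0.19 at 400 µM (adjusted p = 5.92e-11), to 1939 to 2524 CPM in batch 1 and 1379 to 1614 CPM in batch 2. Cyp1a1 rose by 0.94 ± 0.20 (adjusted p = 0.033), and this call was lost when batch 2 was compared with the vehicle wells of its own plate (adjusted p = 0.18). With 1 well left out at a time the adjusted p of Cyp1a1 ran from 0.0063 to 0.446, and only without 400 µM replicate 1 or 2 of batch 1, vehicle replicate 1 or 2 of batch 1 or vehicle replicate 4 of batch 2 was it under 0.05. With the wells of each rat summed to 1 value, neither passed, at an adjusted p of 0.104 for Cyp1a2 and 1 for Cyp1a1, whereas their L2FC were 1.64 and 0.88.

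Between the 2 concentrations Cyp1a2 differed by 0.00 (adjusted p = 0.996) and Cyp1a1 by 0.30 (adjusted p = 0.309). For neither was a further difference at 10000 µM detectable over both batches. The wells of Cyp1a1 were unlike in the 2 batches. In batch 1 it was at 45.1, 32.1 and 56.7 CPM at 400 µM, which overlapped with vehicle and lay below the 72.7 to 90.1 CPM at 10000 µM. In batch 2 it was at 72.5, 88.3 and 82.5 CPM at 400 µM, which overlapped with the 49.0 to 88.9 CPM at 10000 µM. Aldh3a1 was at 25.7 to 31.4 CPM in batch 1 and at 30.1 to 43.4 CPM in batch 2 at 400 µM, with an L2FC of 1.26 against vehicle (adjusted p = 0.0825), and these wells did not overlap with the vehicle wells of their batch, at 17.4 to 17.9 CPM and 6.24 to 16.2 CPM. It differed by 0.47 between concentrations (adjusted p = 0.252). Cyp1b1, in contrast, was at 0.99 to 1.22 CPM and 0.30 to 0.39 CPM in the 400 µM wells, and was higher at 10000 µM than at 400 µM by 4.78 ± 0.35 (adjusted p = 1.65e-25). Tiparp was higher by 2.37 (adjusted p = 6.45e-14) and Nqo1 by 0.46 (adjusted p = 0.021).

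**Figure D2:**
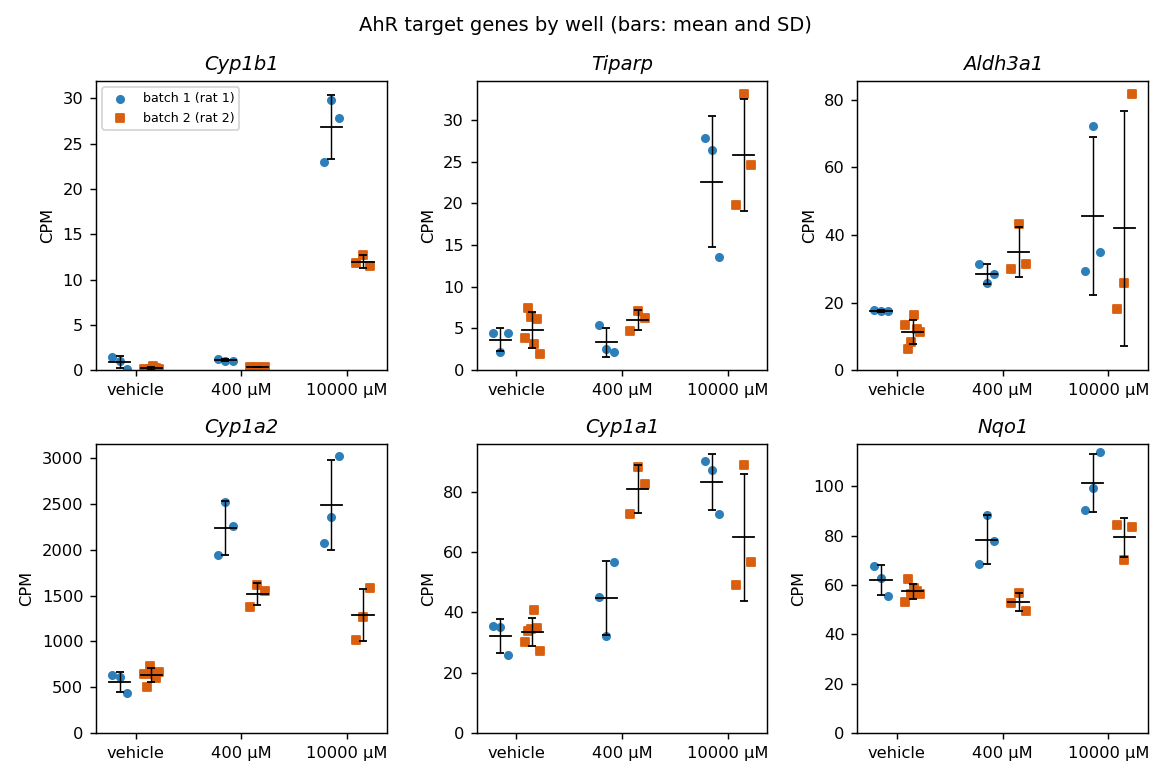
CPM of 6 AhR target genes (y axis, linear from 0) in each well of vehicle, 400 µM and 10000 µM isoniazid (x axis), with circles for batch 1 and squares for batch 2, and black lines for the mean and SD of each group. Cyp1a2 was already raised at 400 µM, whereas Cyp1b1 and Tiparp were raised at 10000 µM and were near the vehicle level at 400 µM.

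Over all genes, 10000 µM and 400 µM isoniazid differed at 3204 genes (31.4% of those tested), 1609 higher and 1595 lower at 10000 µM. This comparison used neighboring wells of the same plates and no vehicle wells. Its changes were ranked among called genes with a mean of 50 counts or more in the higher group. The strongest rises of these were Cyp1b1, Crct1 (3.92), Plagl1 (2.86), Tiparp and Pfkp (2.20), and the strongest falls were Cpn2 (-3.23), Sult2a2 (-3.10), Cyp2c13 (-2.74), Cyp2d1 (-2.60) and Mbl1 (-2.50). The last encodes a mannose-binding lectin of plasma.

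Apart from AhR targets, Crct1, a gene of the cornified cell layer, rose from 2.88, 2.68 and 3.07 CPM to 53.9, 59.2 and 56.7 CPM in batch 1 and from 1.17 to 2.32 CPM to 41.0, 33.3 and 25.9 CPM in batch 2. Its L2FC was 4.34 ± 0.27 (adjusted p = 3.83e-32) and nearly equal in both batches (4.29 and 4.36). Plagl1, a growth-restraining zinc finger protein, rose by 4.02 ± 0.35 (adjusted p = 4.36e-20) from 0 to 1.32 CPM to 5.83 to 10.9 CPM. As for Cyp1b1, this fold is measured against a low level. The largest 10 rises were ranked among genes that passed in each batch with a mean of 50 counts or more in the higher group. The others of these 10 were Il1r2, a decoy receptor for interleukin 1 (2.21), the natriuretic peptide receptor gene Npr1 (2.12), Bex4 (2.11), the enolase gene Eno2 (2.07), the transglutaminase gene Tgm1 (2.05) and Arhgap22 (2.03). For each of these the isoniazid wells lay above all vehicle wells of their batch, which largely follows from the rule that named them.

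Of 24 tested genes of hypoxia and glycolysis 12 rose and 0 fell, beside 17.4% and 17.3% of all genes tested, with a median L2FC of 0.38. Of these, 10 rose with wells summed per rat. Pfkfb3, whose product makes the allosteric activator of phosphofructokinase, rose from 15.5, 14.1 and 20.0 CPM to 49.2, 48.1 and 50.5 CPM in batch 1 and from 14.3 to 23.9 CPM to 82.9, 82.1 and 85.2 CPM in batch 2. The L2FC was 1.87 ± 0.17 (adjusted p = 8.17e-19). The lactate exporter gene Slc16a3 rose by 1.61, the phosphofructokinase gene Pfkp by 1.58 and Adm, encoding adrenomedullin, by 1.56. Vegfa (-0.37) and Ldha (-0.13) did not pass the test. Of 22 respiratory chain subunits 2 were higher (Sdhd and Cox5a) and 1 lower (Atp5f1b), with a median of -0.00, and with wells summed per rat 1 was higher and 0 lower.

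Targets of p53 rose in 9 of 17 tested cases and fell in 1, beside 17.4% and 17.3% of all genes tested, with a median L2FC of 0.31. Pmaip1, a proapoptotic BH3-only protein, had the largest change of the list at 1.96 ± 0.23 (adjusted p = 2.53e-13). It was at 8.43 to 9.21 CPM in isoniazid against 1.79 to 3.75 CPM in vehicle wells of batch 1, and at 7.59 to 8.96 against 0.96 to 2.501 CPM in batch 2. Zmat3 (0.70) and Perp (0.61) rose less, Sesn1 fell (-0.91), and Cdkn1a (0.20), the cell cycle inhibitor that is the best known p53 target, did not pass. With wells summed per rat, 2 of the 17 rose and 0 fell, where 871 of all 10191 genes tested rose and 988 fell. In batch 1 alone 2 of the 17 rose and 0 fell (11.8% higher, near the 9.29% of all genes in that fit). In batch 2 alone 7 rose and 1 fell (41.2% and 5.88%, beside 14.1% and 15.6%). Among chemokine and immediate early genes 7 of 23 rose and 4 fell (30.4% and 17.4%, beside 17.4% and 17.3% of all genes tested), and 4 rose and 1 fell with wells summed per rat. The largest changes were those of Cxcl2 (1.36), Ccl2 (1.27), Birc3 (0.98) and Zfp36 (-1.11), the last of which encodes a protein that destabilizes cytokine mRNA.

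Of 20 coagulation genes 18 fell and 0 rose, against 17.3% of all genes falling, and the median L2FC was -0.93. Serpinf2, the plasmin inhibitor, fell from 96.1, 118 and 72.1 CPM to 15.4, 21.6 and 36.6 CPM in batch 1 and from 54.3 to 94.9 CPM to 17.1, 13.5 and 20.1 CPM in batch 2, with an L2FC of -2.05 ± 0.21 (adjusted p = 2.97e-16). Klkb1, plasma prekallikrein, fell by 2.01 on the log2 scale, Serpind1, heparin cofactor II, by 1.99 and Fgb, the fibrinogen beta chain, by 1.78. F9 (-0.35) and Kng1 (-0.23) did not pass the test. For each of these 4 genes that fell, every vehicle well was above every isoniazid well of its batch. They were named as the largest changes of the list, so this separation largely follows from the naming rule.

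Of 21 hepatocyte identity and secreted protein genes, 15 fell, 1 rose (Apoa2, 0.75) and the median L2FC was -0.64, beside 17.3% of all genes lower and 17.4% higher. The sums per rat left 13 falls and 0 rises. The haptoglobin gene Hp fell by 1.58, the retinol carrier gene Rbp4 by 1.35 and Apoa1, the main protein of high density lipoprotein, by 1.17. Alb fell by 0.42 ± 0.10 (adjusted p = 0.000273), from 10332 to 12078 CPM to 9270 to 11353 CPM in batch 1, where the groups overlapped, and from 12255 to 14278 CPM to 8200 to 10494 CPM in batch 2, where they did not. With the wells of each rat summed, the change of Alb did not pass (adjusted p = 0.0681). Hnf4a, a master transcription factor of hepatocytes, fell by 0.92 in the test of both batches. Of 16 acute phase genes 5 were higher and 9 lower (31.2% and 56.2%, against 17.4% and 17.3% of all genes tested), with a median of -0.50. When the wells of a rat were summed 3 were higher and 6 lower, and with the vehicle wells of the same plate 5 were higher and 6 lower. The largest 4 changes were falls, Fgb, Fga (-1.58), Hp and Fgg (-1.30), and the highest rise was Hamp, the iron hormone hepcidin, at 1.26.

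Of 23 genes of amino acid breakdown 20 fell and 1 rose (Aass, 0.66), beside 17.3% and 17.4% of all genes tested, with a median L2FC of -0.81. The sums per rat left 18 falls and 0 rises. Bhmt, betaine-homocysteine methyltransferase, fell from 160, 155 and 104 CPM to 28.4, 34.7 and 43.4 CPM in batch 1 and from 95.1 to 162 CPM to 14.4, 16.0 and 15.0 CPM in batch 2, an L2FC of -2.64 ± 0.28 (adjusted p = 7.51e-15). Hao1, hydroxyacid oxidase, fell by 2.01, Cdo1, cysteine dioxygenase, by 1.97 and Hgd, homogentisate dioxygenase, by 1.90. Of 16 genes of the urea cycle and gluconeogenesis 10 fell, 1 rose (Glul, 0.51) and the median was -0.77, and the rise of Glul was lost with wells summed per rat (adjusted p = 0.0799), which left 10 falls. Cps1, the entry enzyme of the urea cycle, fell from 377, 315 and 293 CPM to 111, 97.5 and 85.1 CPM in batch 1 and from 225 to 322 CPM to 67.1, 94.1 and 64.0 CPM in batch 2. The glucose 6-phosphate transporter gene Slc37a4 fell by 1.77.

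Enzymes that use pyridoxal phosphate, the cofactor that isoniazid can bind, fell in 19 of 31 cases and rose in 2 (61.3% and 6.45%, beside 17.3% and 17.4% of all genes tested), with a median L2FC of -0.51. When the wells of a rat were summed 15 fell and 0 rose. Cth, cystathionine gamma-lyase, fell from 530, 604 and 464 CPM to 136, 107 and 127 CPM in batch 1 and from 486 to 648 CPM (median 560) to 88.8, 61.5 and 75.2 CPM in batch 2. The L2FC was -2.52 ± 0.15 (adjusted p = 6.71e-33). Abat, GABA transaminase, fell by 2.30, more in batch 2 (-2.74) than in batch 1 (-1.82, adjusted p of the difference = 0.023). Csad, in taurine synthesis, fell by 1.62 and the alanine aminotransferase gene Gpt2 by 1.57. Some of these enzymes also stand in the lists of amino acid breakdown and of ATF4 targets, so the counts of these lists are not separate. In vitamin B6 handling 4 of 6 genes fell and 1 rose. Among them were the aldehyde oxidases Aox1 (-1.52) and Aox3 (-1.39), Plpbp (-0.35) and the thiamine transporter gene Slc19a2, which rose (0.38). When the wells of a rat were summed 2 of the 6 fell and 0 rose, and Aox3, Plpbp and Slc19a2 no longer passed. Pyridoxal kinase, Pdxk, was at 0.81 to 2.82 CPM in the isoniazid wells and its L2FC of 0.31 did not pass (adjusted p = 0.473).

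Of the 18 tested genes of heme synthesis and breakdown 2 rose, 5 fell and 11 did not pass, beside 17.4% and 17.3% of all genes tested, and the median L2FC was -0.16. The sums per rat left 1 rise and 4 falls. Alas1, the rate-limiting enzyme of heme synthesis, rose from 43.1, 43.9 and 36.3 CPM to 64.5, 60.4 and 89.99 CPM in batch 1 and from 39.1 to 53.4 CPM to 80.7, 75.9 and 76.1 CPM in batch 2. The groups did not overlap in either batch, with an L2FC of 0.72 ± 0.13 (adjusted p = 2.22e-06). Alad, the next enzyme, fell by 0.90 (adjusted p = 0.000168) and the mitochondrial glycine carrier gene Slc25a38 by 0.59. Ferrochelatase, Fech, had an L2FC of -0.36 ± 0.23 (adjusted p = 0.212) and Hmox1, heme oxygenase, of 0.20 ± 0.26 (adjusted p = 0.597).

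Among genes that handle isoniazid itself, 4 of 11 fell and 0 rose, beside 17.3% and 17.4% of all genes tested, with a median of -0.28. Nat2, the acetylating enzyme of the drug in humans, was at 1.32 to 2.83 CPM in isoniazid and 1.30 to 2.52 CPM in vehicle wells (L2FC 0.17 ± 0.26, adjusted p = 0.647). Cyp2e1, which oxidizes small solvents and the drug's hydrazine metabolites, was at 1.96 to 8.81 CPM in isoniazid and 2.68 to 11.2 CPM in vehicle wells, with an L2FC of -0.18 ± 0.34 (adjusted p = 0.718), so no change was detectable at this depth. The genes that fell were Glyat, glycine acyltransferase (-2.10), and the carboxylesterases Ces1d (-1.91), Ces2e (-1.33) and Ces2a (-1.01). In NAD and tryptophan metabolism 6 of 12 genes fell, led by Tdo2 (-1.43), Kmo (-1.14), Haao (-1.13) and Nadk2 (-1.09), and Nampt rose (0.81). Of 3 amine oxidases Paox fell (-0.73).

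Constitutive cytochrome P450 genes fell in 11 of 17 cases and rose in 0, beside 17.3% and 17.4% of all genes tested, with a median L2FC of -0.60, and 9 fell with wells summed per rat. Cyp2d1 fell from 81.0, 83.6 and 65.8 CPM to 11.9, 13.6 and 10.9 CPM in batch 1 and from 70.4 to 88.8 CPM to 13.6, 14.0 and 10.8 CPM in batch 2, an L2FC of -2.67 ± 0.16 (adjusted p = 1.4e-34). Cyp2d2 (-2.12) and Cyp2d5 (-1.87) fell too, although probes of these close paralogs may share target RNA. Cyp2c13, a male-specific P450, fell by 2.87, but from 32.1, 60.7 and 55.9 CPM in batch 1 and from only 3.17 to 6.52 CPM in batch 2. Targets of the receptors CAR and PXR, the usual drug sensors, showed no common direction, with 2 of 8 higher (Gadd45b, 0.48, and Cyp3a9, 0.44) and 3 lower, among them Abcc3 (-0.84) and Cyp2b3 (-0.83), beside 17.4% higher and 17.3% lower over all genes tested. When the wells of a rat were summed 0 of the 8 were higher and 1 was lower, and in each batch alone 0 were higher.

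In bile acid handling 8 of 13 genes fell and 2 rose, beside 17.3% and 17.4% of all genes tested, with a median of -0.57, and with wells summed per rat 6 fell and 1 rose. The bile acid uptake carrier gene Slc10a1 fell by 2.54 ± 0.38 (adjusted p = 7.22e-09) from a low level of 1.02 to 3.33 CPM to 0.68 CPM or less. The organic anion carrier gene Slco1a1 fell by 1.84 and the bile acid reductase gene Akr1d1 by 1.55. Abcb4, the phospholipid export pump, rose by 1.80 ± 0.28 (adjusted p = 1.92e-08), from 0.55 to 2.00 CPM to 2.03 to 5.29 CPM. Targets of the fatty acid receptor PPARA fell in 17 of 30 cases and rose in 2 (Cpt1b, 1.07, and Acot2, 0.80). Fgf21, a fasting hormone, fell from 44.7, 59.1 and 33.1 CPM to 3.77, 7.03 and 6.95 CPM in batch 1 and from 26.3 to 50.03 CPM to 9.76, 8.24 and 8.43 CPM in batch 2, an L2FC of -2.47 ± 0.24 (adjusted p = 5.92e-17). Fabp1 (-1.92), a fatty acid binding protein, and G0s2 (-1.89), an inhibitor of lipolysis, were the next largest. With wells summed per rat, 11 of the 30 fell.

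In cholesterol synthesis the batches differed in direction. Over both batches 3 of 20 genes rose, Msmo1 (1.01), Insig1 (0.87) and Sqle (0.68), and 2 fell, with a median L2FC of -0.02, and with wells summed per rat 1 rose and 1 fell. In batch 1 alone 1 rose and 6 fell, with a median of -0.38, beside 9.29% higher and 10.5% lower over all genes in that fit. In batch 2 alone 9 rose and 1 fell, with a median of 0.41, beside 14.1% and 15.6%. The effect was more positive in batch 2 than in batch 1 for 9 of the 20 and more negative for 0 by the test of the batch difference, beside 0.559% of all genes tested that were more positive. In fatty acid synthesis 4 of 19 rose and 3 fell, among them Scd (1.07), Fads1 (0.76), Thrsp (-1.43) and Pklr (-0.84), with a median of -0.13. These shares of 21.1% and 15.8% lay near those of all genes tested, 17.4% and 17.3%.

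ATF4, the transcription factor of amino acid shortage and ER stress, raises genes of amino acid supply, and the unfolded protein response raises ER chaperones. Of 29 tested ATF4 targets 17 fell and 3 rose, beside 17.3% and 17.4% of all genes tested, with a median L2FC of -0.58, and with wells summed per rat 14 fell and 2 rose. Aldh1l2, a mitochondrial folate enzyme, fell from 35.2, 45.4 and 35.8 CPM to 4.98, 5.47 and 4.70 CPM in batch 1 and from 29.2 to 39.6 CPM to 5.42, 5.92 and 7.51 CPM in batch 2, an L2FC of -2.67 ± 0.17 (adjusted p = 1.34e-31). Chac1, which degrades glutathione, fell by 1.93 ± 0.22 (adjusted p = 1.2e-13), Cth and Gpt2 fell as above, and Atf4 itself fell by 0.29, a call lost with wells summed per rat (adjusted p = 0.0982). The 3 that rose were Ddit3, Ppp1r15a (0.68) and Cebpb (0.27, adjusted p = 0.046, close to the threshold), of which Cebpb did not pass with wells summed per rat.

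Ddit3, which encodes the stress factor CHOP, rose by 1.44 over both batches, but this came from batch 2. In batch 1 it was at 39.1, 28.1 and 28.7 CPM in isoniazid wells and at 23.4, 25.7 and 29.3 CPM in vehicle wells, and the groups overlapped. In batch 2 it was at 106, 116 and 114 CPM against 20.7 to 29.2 CPM (median 27.0). The effects of 0.30 and 2.08 differed between the batches by 1.78 ± 0.21 (adjusted p = 5.79e-10), the smallest p of this test among the named genes.

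Of 13 ER chaperone genes 10 fell and 0 rose, with a median L2FC of -0.64, and 6 of these fell with wells summed per rat. Edem1, which sends misfolded glycoproteins to degradation, fell from 251, 269 and 216 CPM to 68.5, 64.7 and 70.3 CPM in batch 1 and from 239 to 273 CPM to 62.5, 52.1 and 75.6 CPM in batch 2, an L2FC of -1.92 ± 0.13 (adjusted p = 5.22e-28). Herpud1 fell by 1.66, Xbp1, the transcription factor of the response, by 1.31 and the chaperone gene Hsp90b1 by 0.87. Hspa5, the central chaperone BiP, spread from 5.56 to 21.6 CPM in the isoniazid wells and did not pass (-0.37 ± 0.35, adjusted p = 0.441). Of 11 cytosolic heat shock genes 3 were higher (Hspa4l, 0.75, Hspb1, 0.39, and Hsp90aa1, 0.32) and 1 lower (Hspa8, -0.38), with a median of 0.04, beside 17.4% and 17.3% of all genes tested. In the sums per rat only Hspa4l passed, and the fall of Hspa8 was also lost with no filter and with the vehicle wells of the same plate.

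**Figure D3:**
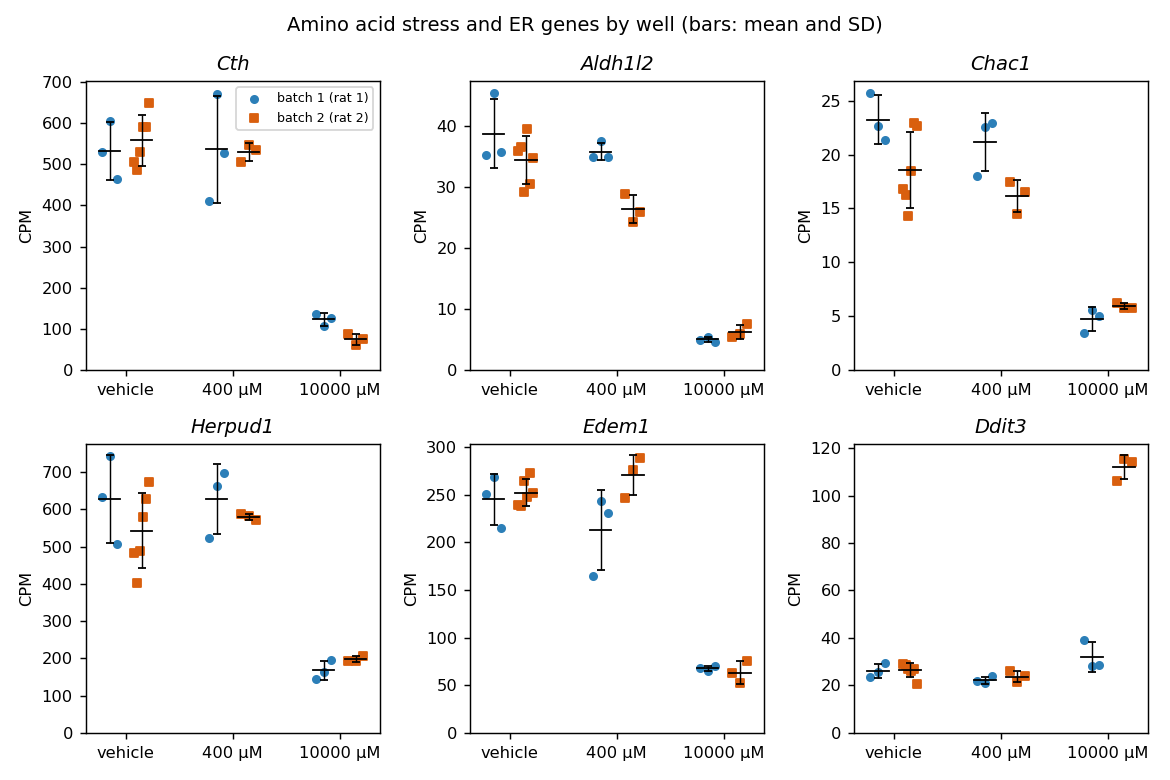
CPM of 5 genes that fell and of Ddit3 (y axis, linear from 0) in each well of vehicle, 400 µM and 10000 µM isoniazid (x axis), with circles for batch 1, squares for batch 2 and black lines for the mean and SD. Cth, Aldh1l2, Chac1, Herpud1 and Edem1 were low in all 6 wells at 10000 µM, while Ddit3 was high in the 3 wells of batch 2.

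The promoter of Chac1 is shown because it is an ATF4 target that fell and its window holds a composite C/EBP-ATF element. The 250 bases before the start lie at chr3:126795881-126796130 (+ strand, GRCr8), and capitals mark the match to TGATGNAA or its reverse complement, on the reverse strand 167 to 160 bases before the start.
Chac1: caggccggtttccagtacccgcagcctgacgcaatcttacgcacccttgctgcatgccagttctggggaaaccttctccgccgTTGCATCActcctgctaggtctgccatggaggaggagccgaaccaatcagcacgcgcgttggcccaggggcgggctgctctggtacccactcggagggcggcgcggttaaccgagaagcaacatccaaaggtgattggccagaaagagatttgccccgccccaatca
Of all promoter windows 3.40% held this element, and of the 17 ATF4 targets that fell 14 were in the table and 3 held it.

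Targets of the oxidant sensor NRF2 were higher in 7 of 29 cases and lower in 8 (24.1% and 27.6%, beside 17.4% and 17.3% of all genes tested), with a median of 0.05. With wells summed per rat 3 were higher and 7 lower, and the rises of Gsta5 and Gsta2 were lost. Glutathione transferase genes stood at both ends, with Gstm3 (-2.18) and Gsta3 (-1.34) among the falls and Gsta5 (0.87) and Gsta2 (0.78) among the rises. Akr7a3 fell by 1.18. Metallothioneins and zinc transporters showed 0 rises and 1 fall of 5, Slc39a14 (-1.02), over both batches, but in batch 1 alone 2 rose, Mt1 (1.47) and Mt2A (1.19), whereas in batch 2 their L2FC were -0.45 and -0.62 and did not pass. Cell cycle genes showed 1 rise of 19, Ccnd1 (0.65), and 1 fall, Tk1 (-0.85), and the rise was lost with wells summed per rat. In batch 1 alone 0 of the 19 rose and 5 fell, with a median of -0.51, beside 9.29% and 10.5% of all genes in that fit. In batch 2 alone 2 rose and 1 fell, with a median of 0.28, beside 14.1% and 15.6%, while the test of the batch difference called 0 of them. Of 20 ribosome biogenesis genes 1 rose, the nucleolar gene Npm1 (0.98), and 1 fell, Bop1 (-0.28), the latter lost with wells summed per rat.

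Of the markers of other liver cells, 1 of 9 tested Kupffer cell and leukocyte genes rose (Cd68, 0.60) and 2 fell (Cd163, -0.83, and Lyz2, -0.71), shares of 11.1% and 22.2% near the 17.4% and 17.3% of all genes tested. In the sums per rat 0 of the 9 passed, and the median was 0.41 in batch 1 and -0.36 in batch 2. Of 5 stellate cell genes 1 rose (Reln, 0.49) and 2 fell, Col3a1 (-0.74) and Tagln, a smooth muscle actin binder, which was at 36.8 to 59.0 CPM against 98.6 to 112 CPM in batch 1 and at 9.26 to 12.2 against 52.7 to 117 CPM in batch 2 (L2FC -2.09 ± 0.27, adjusted p = 3.9e-11). Eng, the 1 endothelial gene tested, did not pass (-0.30), and of 4 biliary genes Sox9 rose (1.61 ± 0.25, adjusted p = 3.6e-08), from 2.76 to 5.18 CPM to 10.9 to 18.4 CPM in batch 1 and from 1.67 to 3.99 CPM to 6.18 to 8.54 CPM in batch 2, while Spp1 and Epcam did not pass. The summed levels of these lists are given above, and their part in the other results was not tested.

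The largest falls were ranked among genes that passed in each batch with a mean of 50 counts or more in the higher group. They were Cpn2 (-3.14 ± 0.21), the regulatory subunit of carboxypeptidase N, Serpinb1a (-2.95), Cyp2c13, the sulfotransferase gene Sult2a2 (-2.82), Aldh1l2, Cyp2d1 and Bhmt. Next came the annexin gene Anxa8 (-2.60), A1cf (-2.54), which serves apolipoprotein B mRNA editing, and Cth. Cpn2 was at 75.7, 92.9 and 75.9 CPM in vehicle and 10.6, 11.1 and 12.8 CPM in isoniazid wells of batch 1, and at 23.8 to 38.5 against 2.17, 2.06 and 3.03 CPM in batch 2. For each of these 10 genes no isoniazid well reached the lowest vehicle well of its batch. They were named as large falls that passed in each batch, so this separation largely follows from the naming rule.

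Fitted by itself, batch 1 gave 2019 calls (19.8% of genes, 9.29% higher and 10.5% lower) and batch 2 gave 3025 (29.7%, 14.1% higher and 15.6% lower), with 3 and 6 vehicle wells. Of these, 1463 genes (14.4% of those tested) passed in both batches in the same direction, 6.27% higher and 8.09% lower, which is 72.5% of the calls of batch 1 and 48.4% of those of batch 2, and 10 passed in opposite directions. The test of the difference between the batch effects called 108 genes (1.06%), 57 with a more positive effect in batch 2 (0.559%) and 51 with a more negative one. With 1 well left out at a time this count ran from 52 to 116, the lowest without vehicle replicate 2 of batch 1, and it was 63 with no filter. The batches are different rats on different plates, and according to the paper their libraries were made and sequenced separately. These differences cannot be told apart. The differences were ranked among called genes with a mean of 50 counts or more in the higher group. The most positive of these were Cyp2c13 (2.87), Per3 (1.95), a clock gene, Ddit3, Pparg (1.63) and Msmo1 (1.50). The most negative of these were Sorbs3 (-1.81), Tagln (-1.81), the metallothionein gene Mt2A (-1.80), the tyrosine kinase gene Fgr (-1.64) and Fam89a (-1.60). For Mt2A the 3 isoniazid wells of batch 1 were at 40.5 to 41.2 CPM against 11.4 to 21.97 CPM, and those of batch 2 were at 14.6 to 23.7 against 19.5 to 42.5 CPM.

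**Figure D4:**
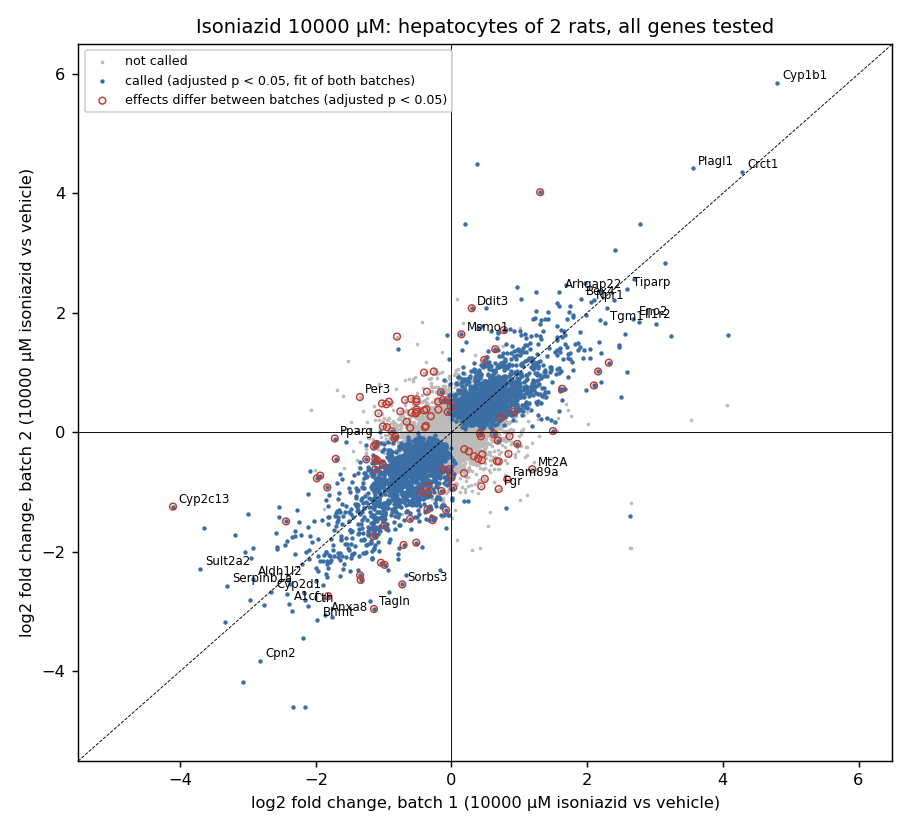
Log2 fold change of 10000 µM isoniazid against vehicle in batch 1 (x axis) and batch 2 (y axis) for each of the 10191 genes tested, with genes called in the fit of both batches in blue and genes whose effects differed between the batches circled in red. The named genes are the 10 largest rises and falls and the 10 largest differences. They were ranked among called genes with a mean of 50 counts or more in the higher group, and the rises and falls also passed in each batch. The dashed line marks equal effects.

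In the ST assay, which measured the same lysates with fewer probes in separate libraries, 825 of 1760 genes passed (46.9% of genes, 22.3% higher and 24.6% lower). Of 1603 genes tested in both assays, 694 were called in WT, 760 in ST and 580 in both, all 580 in the same direction. Tiparp rose by 2.61 and Cyp1a2 by 1.64 in ST, and Cth fell by 2.80, Bhmt by 2.82 and Fgf21 by 2.51. Cyp2d1 fell by 0.97 in ST against 2.67 in WT.

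To see where isoniazid differed from other treatments, its 6 wells were compared with the mean of the other 13 high concentration treatments in 78 wells, each treatment weighted equally and no vehicle well used. Of the genes tested 47.9% differed, 25.2% higher and 22.6% lower. Aldh3a1 was higher by 4.03 ± 0.22 (adjusted p = 4.15e-39), Cyp1b1 by 3.90, the chemokine gene Cxcl3 by 3.88, Crct1 by 3.81 and Plekhs1 by 3.64. In the same comparison 16 of 23 chemokine and immediate early genes, 7 of 9 Kupffer cell and leukocyte markers, 3 of 5 stellate cell markers and 4 of 4 biliary markers were higher, with median differences of 0.52, 1.20, 0.36 and 0.83, and the part of these markers in the chemokine values was not tested. Of 8 AhR targets 6 were higher and 0 lower, with a median difference of 2.02. Among called genes with a mean of 50 counts or more in the higher group, the lowest were Cyp4a1 (-4.47), Acot1 (-4.12), Cyp4a2 (-4.08), Ehhadh (-3.61) and Sult2a2 (-3.33). The first 4 are PPARA targets, and all 30 tested targets of PPARA were lower than the mean of the others, as were 26 of 29 ATF4 targets and all 13 ER chaperone genes. The other treatments include WY14643, an agonist of PPARA, and against vehicle 17 of the 30 targets fell, with a median of -0.38. Acot1 had 5 counts in all over the 6 isoniazid wells.

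Each of the 14 high concentration treatments was also set against the same vehicle wells, so these L2FC share them. For Cyp1b1 isoniazid ranked highest of the 14, ahead of valproic acid at 10000 µM (3.83). For Aldh3a1 it ranked second to doxorubicin at 2 µM (2.22), and the median of the other 13 was -1.39, with ranitidine at 4000 µM lowest (-8.34). For Cyp1a2 it ranked second to indomethacin at 300 µM (2.09). Crct1 was higher with ranitidine (7.99) and Plagl1 with valproic acid (7.16) than with isoniazid. For Cyp4a1 isoniazid itself had an L2FC of -0.55 that did not pass, and for Ehhadh of -0.38. Cxcl2 had an L2FC of -0.43 or lower in every other treatment against 1.36 with isoniazid, and Plekhs1 of -0.26 or lower against 1.42. Alas1 ranked 8 of 14 and Ddit3 ranked 9 of 14, with diclofenac at 400 µM highest for Ddit3 (6.30).

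**Figure D5:**
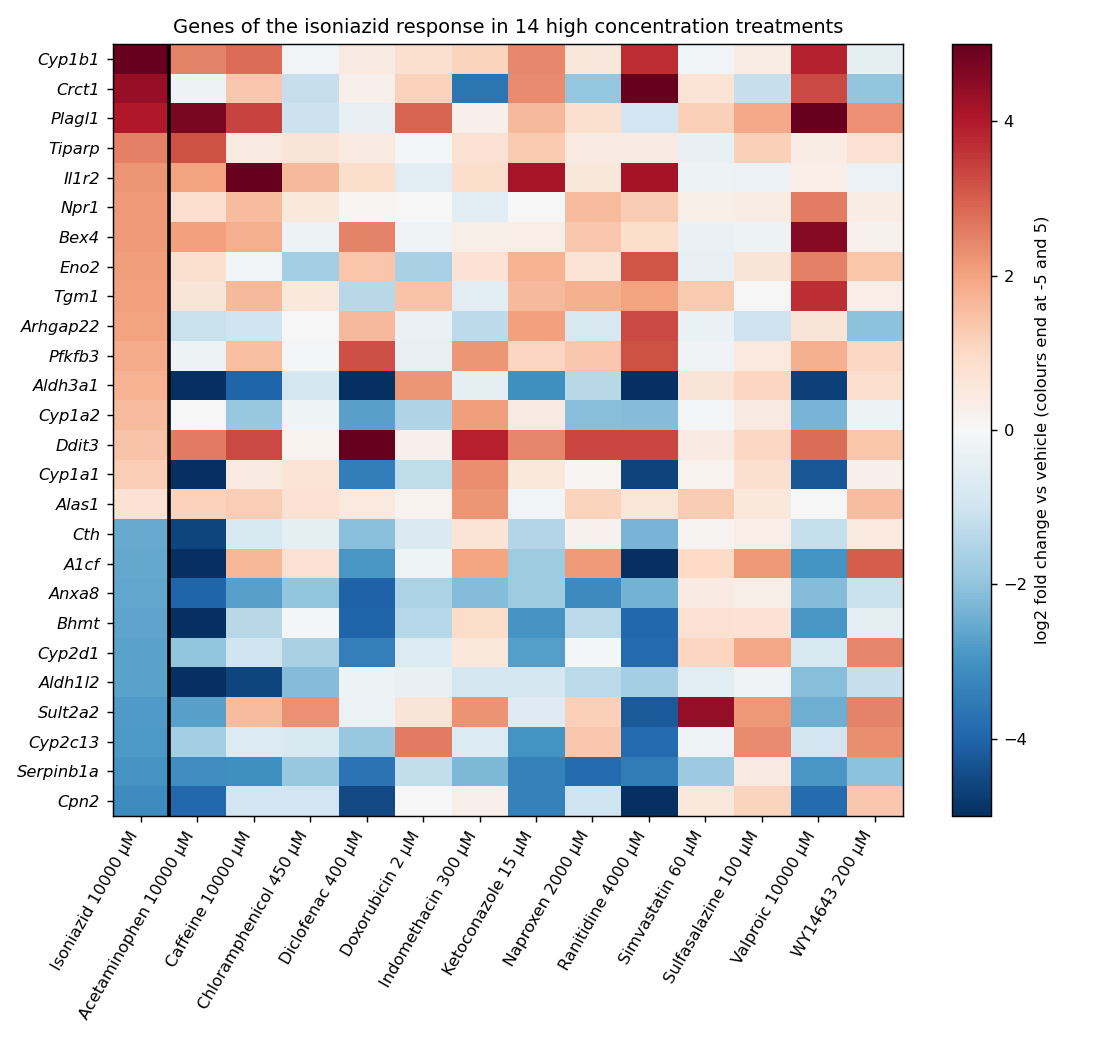
Log2 fold change against vehicle (color, red higher and blue lower, ending at -5 and 5) of the 10 largest rises, the 10 largest falls and 6 further genes of the isoniazid response (rows, ordered by the isoniazid value) in isoniazid at 10000 µM (left column) and the other 13 high concentration treatments (columns). The rises and falls were ranked among genes that passed in each batch with a mean of 50 counts or more in the higher group. Cyp1b1 was highest with isoniazid, whereas the L2FC of Cpn2 and Bhmt was lower still with acetaminophen, diclofenac, ketoconazole, ranitidine and valproic acid.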

How the data were processed

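Cultured hepatocytes were exposed for 24 h, lysed and profiled by TempO-Seq. According to the study's methods the authors aligned reads to the rat genome rn6 with STAR 2.5.3a, and the deposited tables hold raw read counts per probe. The probe counts were summed per gene symbol here. Genes with a mean of 10 or more counts over the 186 wells of an assay were tested, with TMM scaling, by the quasi-likelihood test of edgeR 4.0.16 in R 4.3.3 (limma 3.58.1), with batch and treatment over all wells, and Benjamini-Hochberg adjustment at 0.05. Levels are CPM on TMM-scaled library sizes. DESeq2 1.42.0, other scaling, filters and replicate units were alternatives. On simulated counts, 99% of 200 genes changed 2-fold were recovered among 10191 genes, with 15 false calls.

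Named genes were 7 genes named in any case (Alas1, Fech, Hmox1, Cyp2e1, Nat2, Pdxk and Alb), up to 4 called genes of largest absolute L2FC per list with the same sign in both batches, the 10 largest rises and 10 largest falls that passed in each batch with a mean of 50 counts or more in the higher group, and the 5 highest and 5 lowest called differences in each further comparison under the same count limit. Provisional gene symbols were left out of these rankings. Other genes named, as exceptions or the members of a small count, were chosen after their values were seen. The members and lists were chosen with earlier results of these data known. Wells of a batch share 1 rat. The precision of low counts is limited by the 5345700 to 8265000 reads per WT well. Some genes that the rule names are not reported here.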

Additional observations from a re-analysis of the deposited data

Results flagged for a closer look

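Among the 140 named genes, single vehicle wells of batch 2 lay far from the other 5 wells of that group for 8 genes. Chance gives such a gap in about 1 in 20 groups, so 8 of 140 is near the number that chance gives. The lowest well was at 9422 CPM for Apoa1 (the others at 11395 to 12476), at 44.4 CPM for Fech (63.3 to 72.2), at 24.7 CPM for Hspb1 (31.3 to 34.5) and at 0.693 CPM for Bex4 (1.79 to 2.33). The highest well was at 65.4 CPM for Gstm3 (the others at 44.5 to 51.6), at 6.19 CPM for Lyz2 (4.16 to 4.85), at 3.33 CPM for Slc10a1 (2.33 to 2.48) and at 0.167 CPM for Acot1, which is 1 count against wells at 0, so its gap carries no information.

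The effect of isoniazid differed between the batches for 14 of the named genes, by the edgeR test of the difference with Benjamini-Hochberg adjustment over all genes. Of these, 10 were named for having the 5 highest and 5 lowest batch differences among called genes with a mean of 50 counts or more in the higher group. The count is thus set largely by the naming rule. It was more positive in batch 2 for Cyp2c13 (2.87, adjusted p = 0.00885), Per3 (1.95, adjusted p = 2.24e-05), Ddit3 (1.78, adjusted p = 5.79e-10), Pparg (1.63, adjusted p = 0.00224), Msmo1 (1.50, adjusted p = 7.59e-05) and G0s2 (0.95, adjusted p = 0.0204). Per3 changed sign, from -1.35 in batch 1 to 0.59 in batch 2, and Msmo1 went from 0.15 to 1.64. It was more negative in batch 2 for Sorbs3 (-1.81, adjusted p = 0.000349), Tagln (-1.81, adjusted p = 0.0164), Mt2A (-1.80, adjusted p = 0.0102), Fgr (-1.64, adjusted p = 0.00628), Fam89a (-1.60, adjusted p = 0.00244), Plekhs1 (-1.31, adjusted p = 0.00631), Cyp1a2 (-1.14, adjusted p = 0.0428) and Abat (-0.92, adjusted p = 0.023). Mt2A went from 1.19 to -0.62, Fgr from 0.70 to -0.95 and Fam89a from 0.82 to -0.79.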

How the results depend on the processing

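With an absolute L2FC of at least 1 required, calls numbered 591 for 10000 µM against vehicle, 606 in batch 1, 703 in batch 2, 47 for the batch difference, 591 against 400 µM, 1 for 400 µM against vehicle, 786 against the other treatments and 217 in ST. With the wells of each rat summed they were 1859 for 10000 µM against vehicle, 1799 against 400 µM, 0 for 400 µM by edgeR (84 at an unadjusted p under 0.05) and 515 in ST. Of the 504 tested list members 43 then rose in place of 79, beside 871 in place of 1771 of all 10191 genes. Over wells 191 of these members fell, beside 1766 of all genes. The batch difference had 63 calls with no filter, and 400 µM had 1 with same-plate vehicle wells. Leaving out 1 well at a time gave 3189 to 3489 calls against vehicle, 1532 to 1775 in batch 1, 2391 to 2931 in batch 2, 2897 to 3229 against 400 µM, 1 to 2 for 400 µM, 4518 to 4631 against the other treatments and 776 to 836 in ST. The batch difference ran from 52 to 116, with 52 without vehicle batch 1 replicate 2, 59 without isoniazid batch 1 replicate 2 and 71 without isoniazid batch 2 replicate 1. Among named genes that did not pass, Cyp2e1 ran from -0.45 to 0.0073 with 1 well left out, above 0 only without vehicle batch 2 replicate 2, and Hmox1 moved to -0.0022 with same-plate vehicle wells. With wells summed per rat, 20 of 146 values of named genes no longer passed, and with DESeq2 all 146 kept their direction and side of the threshold. The causes were not tested, except that fewer samples enter the sums. No paired analysis was possible because the labels give single wells no replicate number shared between groups, except by rat, which was the batch term of the fits of both batches and of the sums per rat. Low counts limit genes such as Pdxk, Nat2 and Cyp2e1.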
